A study of Schizosaccharomyces pombe with 4 samples.

Results

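The cytosolic small ribosomal subunit of fission yeast, Schizosaccharomyces pombe, is described here through the transcripts of its ribosomal proteins. Array genes were taken as members when their symbol is rps followed by a number, which gave 47 of the 4880 genes named on the array. All 47 had 1 spot each and a value on all 4 arrays, so all were tested, among 4771 genes tested in all. They form 27 families: 18 with 2 copies, 1 with 3 copies and 8 with a single gene on the array.

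The small subunit binds the mRNA, scans for the start codon and checks codon against anticodon. Its proteins are named with a u where bacteria have a counterpart and with an e where they have none. In yeasts the ribosomal protein genes are among the most strongly transcribed genes of growing cells, they are known to be lowered together under heat and other stress, and many exist as near-identical copies.

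Each of the 4 arrays compared polyA RNA of 1 strain in 2 channels: cells kept 30 min at 36 °C, and cells of the same strain growing exponentially at 25 °C, both in the rich medium YES. Strain JV565 has the mutant allele mmi1-ts3, for which 36 °C is the restrictive temperature, and strain JV558 is the wild-type control, with 2 arrays each. Mmi1 is an RNA-binding protein that directs meiotic transcripts to degradation in vegetative cells. The study asked how the expression profile differs with and without its function. Each culture was started from a single colony, and nothing states that the arrays of a strain came from separate cultures, so p-values measure the spread between these arrays, which may be technical.

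Values are log2 ratios of 36 °C over 25 °C with the median of each array set at 0. A negative value is a transcript that fell relative to the median gene. A change common to all transcripts is not seen, and fewer cells of a kind cannot be told apart from less RNA per cell. The direction was read from the heat shock and stress genes hsp16, hsp9, hsp78, hsp104, ssa1, ssa2, hsp90 and ctt1, of which 8 of 8 were positive on all 4 arrays, and is likely rather than stated. The log base is likewise read from the values: with a natural log, every log2 value would be multiplied by 1.44. In each strain 1 array has a code in its title (the coded array, replicate 2) and the other has none (the uncoded array, replicate 1). The transcript of mmi1 itself was 0.24 and 0.66 in mmi1-ts3, against −0.24 and 1.01 in the wild type; since the allele is not described as a deletion, its level checks no label.

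Transcripts of nearly all small subunit proteins lay below the median gene in both strains after the shift. On every array, 45 of the 47 were below 0 (95.7%, against 31.6% of all genes tested). The exceptions were rps7 and rps1402. The median response was −0.93 in mmi1-ts3, which is 0.525-fold, and −0.58 in the wild type, which is 0.67-fold, while the medians over all genes tested were 0.005 and 0.031 in mmi1-ts3 and the wild type. The medians of the members on single arrays were −0.91 and −0.97 in mmi1-ts3 and −0.51 and −0.63 in the wild type, so the strains did not overlap.

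With limma over all genes and a Benjamini-Hochberg adjusted p under 0.05, 41 of the 47 fell in mmi1-ts3 and 0 rose, where 19.6% of all genes were called lower and 14.9% higher. In the wild type 18 fell and 0 rose, where 14.5% of all genes were called lower and 13.5% higher. The 18 called in the wild type were all among the 41 called in mmi1-ts3, 23 were called in mmi1-ts3 alone and 6 in neither strain: rps7, rps1402, rps1602, rps21, rps27 and rps3001. A call in 1 strain and not in the other is not a difference between them; that difference is tested further down.

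These counts depend on single arrays. Without replicate 1 or replicate 2 of mmi1-ts3, 16 and 7 members were called lower in that strain, where 11.2% and 10.8% of all genes were. Without replicate 1 or replicate 2 of the wild type, 6 and 0 members were called lower in the wild type, where 9.1% and 6.2% of all genes were. The 7 members in mmi1-ts3 and the 6 and 0 in the wild type are thus shares near or below those of all genes. With the array set as a block the counts were 45 in mmi1-ts3 and 32 in the wild type, where 24.3% and 19.3% of all genes were called lower. The calls of rps001, rps1501, rps1902 and rps2802 in mmi1-ts3 held whichever array was left out, and 0 of those in the wild type did.

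**Figure D1:**
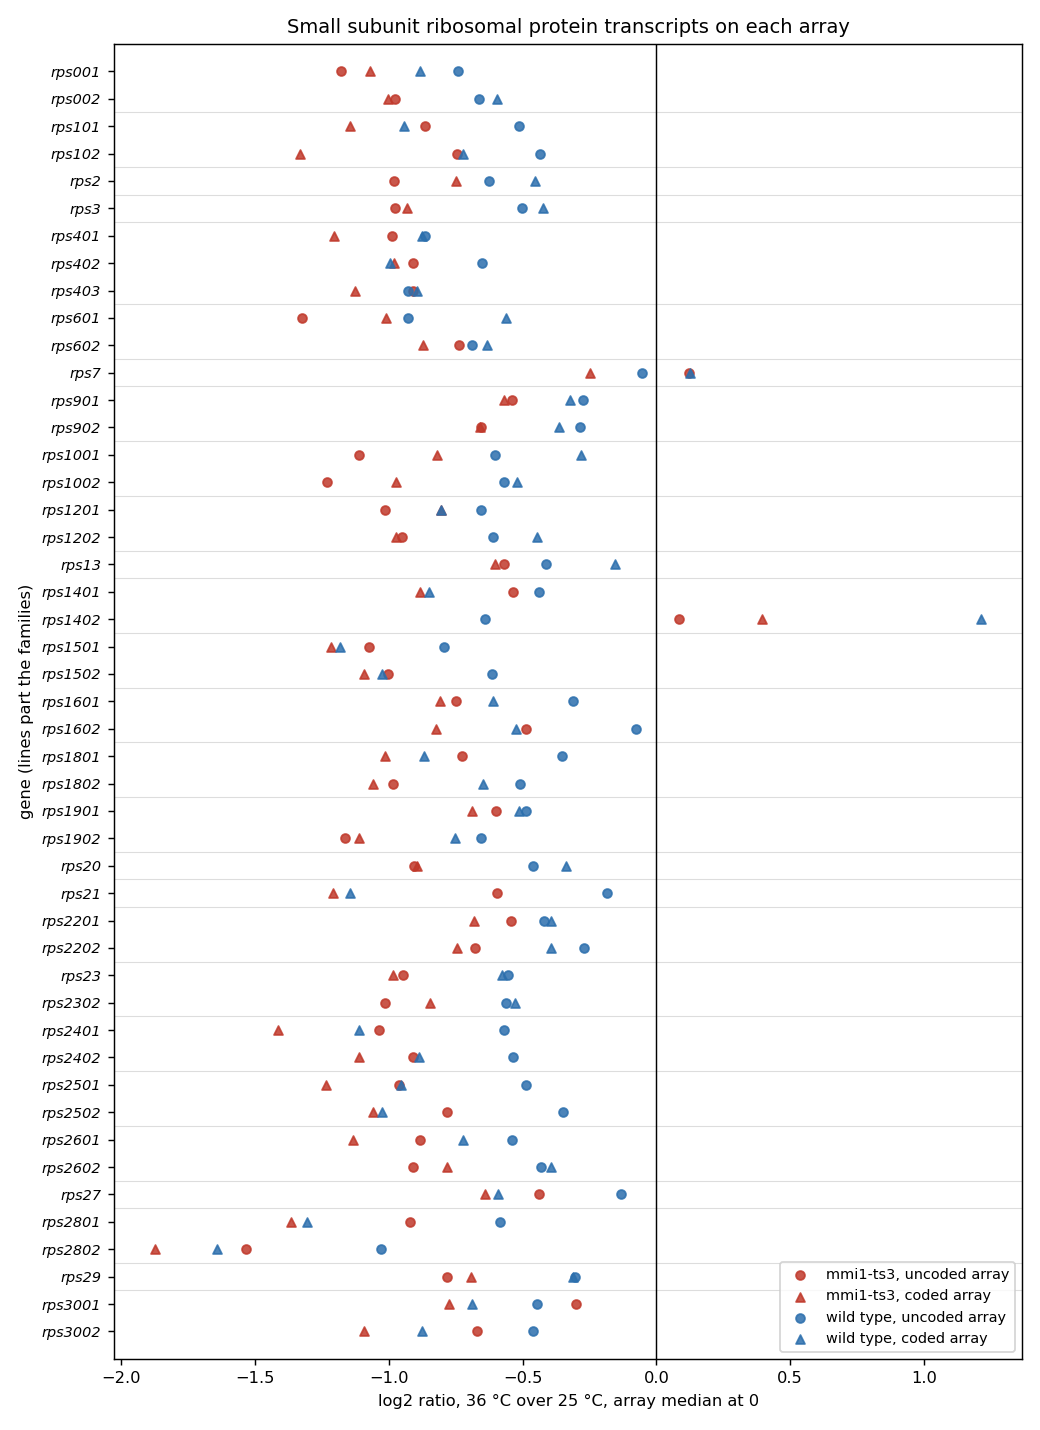
Log2 ratio of 36 °C over 25 °C (horizontal, array median at 0) of each of the 47 small subunit genes, with 1 point per array: red for mmi1-ts3, blue for the wild type, circles for the uncoded and triangles for the coded array. Apart from rps7 and rps1402, every gene lies left of 0 on all 4 arrays, and rps2802 lies furthest left.

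Of the proteins at the mRNA exit, the family of Rps28 (eS28), a head protein, fell furthest. For rps2802 (SPOM_SPCC285.15C) the log2 ratios were −1.53 and −1.87 in mmi1-ts3, against −1.03 and −1.64 in the wild type. The means were −1.70 ± 0.24 in mmi1-ts3 and −1.33 ± 0.43 in the wild type (SD, n = 2 arrays each), with limma adjusted p of 0.00402 and 0.0101 in mmi1-ts3 and the wild type. The strains overlapped, the wild-type coded array lying below the mmi1-ts3 uncoded one. Of all genes tested, rps2802 stood at percentile 3.79 in mmi1-ts3 and 4.84 in the wild type, counted from the lowest. Its copy rps2801 was less low, at −0.92 and −1.37 in mmi1-ts3, against −0.58 and −1.30 in the wild type. In budding yeast one of the Rps28 proteins is known to promote decay of its own mRNA.

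The platform proteins Rps1 (eS1) and Rps26 (eS26) also line the exit. For rps101 the ratios were −0.86 and −1.14 in mmi1-ts3, against −0.51 and −0.94 in the wild type, and for rps102 −0.74 and −1.33 in mmi1-ts3, against −0.43 and −0.72 in the wild type. For rps2601 they were −0.88 and −1.13 in mmi1-ts3, against −0.54 and −0.72 in the wild type. All of these fell in mmi1-ts3, and rps101 and rps2601 also passed in the wild type, with adjusted p of 0.0422 and 0.0461 by limma. With 1 array left out, the adjusted p of rps102 in mmi1-ts3 reached 0.16. The second Rps26 gene, rps2602, averaged −0.85 in mmi1-ts3 and −0.41 in the wild type and passed in mmi1-ts3 alone.

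The third platform protein, Rps14 (uS11), had copies that went apart. For rps1401 the log2 ratios were −0.54 and −0.88 in mmi1-ts3, against −0.44 and −0.85 in the wild type, and it passed in mmi1-ts3 alone. For rps1402 (SPOM_SPBC18H10.13) they were 0.08 and 0.40 in mmi1-ts3, against −0.64 and 1.21 in the wild type, the widest spread of any member between arrays of a strain (SD 1.31 in the wild type). It is the member with the highest mean in both strains, and passed in neither (adjusted p = 0.697 in mmi1-ts3 and 0.656 in the wild type by limma). With wild-type replicate 1 left out, its wild-type value was 1.21, from 1 array, and its call changed. The 20 spots listed nearest to it, 10 on each side, had medians of 0.34 and 0.44 in mmi1-ts3 and −0.61 and 0.71 in the wild type, in the same order over the arrays as rps1402 itself. Nearness here is by spot number, as no slide coordinates were used, and the part of position on the array in its values was not tested. With each spot centred on the 100 spots nearest by spot number instead, an alternative chosen after this was seen, rps1402 averaged −0.08 in mmi1-ts3 and 0.12 in the wild type.

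At the mRNA entry and the decoding centre sit Rps2 (uS5), Rps3 (uS3), Rps30 (eS30), Rps23 (uS12) and Rps9 (uS4). For rps3 the ratios were −0.98 and −0.93 in mmi1-ts3, against −0.50 and −0.43 in the wild type, and for rps2 −0.98 and −0.75 in mmi1-ts3, against −0.63 and −0.45 in the wild type. The copies rps23 and rps2302 had means of −0.97 and −0.93 in mmi1-ts3, against −0.57 and −0.54 in the wild type. In each of these 4 genes both mmi1-ts3 arrays lay below both wild-type arrays. The copies rps901 and rps902 were less low, with means of −0.55 and −0.66 in mmi1-ts3, against −0.30 and −0.32 in the wild type. In contrast rps3001, at −0.30 and −0.77 in mmi1-ts3 against −0.45 and −0.69 in the wild type, overlapped between the strains and passed in neither. Its copy rps3002 averaged −0.88 in mmi1-ts3 and −0.67 in the wild type, also with overlap, and passed in mmi1-ts3 alone.

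The head proteins Rps15 (uS19) and Rps18 (uS13) face the large subunit. The ratios of rps1501 were −1.07 and −1.22 in mmi1-ts3, against −0.79 and −1.18 in the wild type, and it fell in both strains (adjusted p = 0.00744 in mmi1-ts3 and 0.0151 in the wild type by limma). The strains overlapped for rps1501 and for rps1502, which averaged −1.05 in mmi1-ts3 and −0.82 in the wild type. Of the other pair, rps1802 averaged −1.02 ± 0.05 in mmi1-ts3 and −0.58 ± 0.10 in the wild type (SD, n = 2 each) with no overlap, and rps1801 −0.87 ± 0.20 in mmi1-ts3 and −0.61 ± 0.37 in the wild type with overlap.

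Of the remaining head proteins, Rps10 (eS10) and Rps20 (uS10) are known as sites of ubiquitin marks on stalled ribosomes in human cells. For rps1002 the ratios were −1.23 and −0.97 in mmi1-ts3, against −0.57 and −0.52 in the wild type, for rps1001 −1.11 and −0.82 in mmi1-ts3, against −0.60 and −0.28 in the wild type, and for rps20 −0.91 and −0.90 in mmi1-ts3, against −0.46 and −0.34 in the wild type. None of these overlapped between the strains, and each passed in mmi1-ts3 and not in the wild type. The gene rps1902, for Rps19 (eS19), which is needed for 18S rRNA maturation, was at −1.16 and −1.11 in mmi1-ts3, against −0.65 and −0.75 in the wild type. Its copy rps1901 was less low, averaging −0.64 in mmi1-ts3 and −0.50 in the wild type, and passed in mmi1-ts3 alone. The family of Rps12 (eS12), a protein of the beak of the head, averaged −0.91 and −0.96 in mmi1-ts3 (rps1201 and rps1202), against −0.73 and −0.53 in the wild type. Rps16 (uS9), which reaches the tRNA in the P site, was less low, with rps1601 at −0.78 and rps1602 at −0.66 in mmi1-ts3, against −0.46 and −0.30 in the wild type, and rps1602 did not pass (limma adjusted p = 0.053 in mmi1-ts3 and 0.311 in the wild type).

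In the body, the 3 copies for Rps4 (eS4) averaged −1.10 (rps401), −0.95 (rps402) and −1.02 (rps403) in mmi1-ts3, against −0.87, −0.82 and −0.91 for the same genes in the wild type. All of them passed in both strains. Rps6 (eS6), the protein phosphorylated by kinases of the TOR pathway, had rps601 at −1.32 and −1.01 in mmi1-ts3, against −0.93 and −0.56 in the wild type, and rps602 at −0.74 and −0.87 in mmi1-ts3, against −0.69 and −0.63 in the wild type. For rps2401, for Rps24 (eS24), the ratios were −1.04 and −1.41 in mmi1-ts3, against −0.57 and −1.11 in the wild type, the lowest mean after rps2802 in mmi1-ts3. Rps0 (uS2) and Rps21 (eS21) touch each other in the subunit. The copies rps001 and rps002 averaged −1.12 and −0.99 in mmi1-ts3, against −0.81 and −0.63 in the wild type. Their neighbour rps21 ran from −0.60 to −1.21 between the arrays of mmi1-ts3 and from −0.19 to −1.15 between those of the wild type, and passed in neither strain.

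Of the members not yet described, all but rps7 lay below 0 on every array. Rps25 (eS25), a head protein needed for initiation at viral internal entry sites, had rps2501 at −0.96 and −1.24 in mmi1-ts3, against −0.49 and −0.95 in the wild type, without overlap, and rps2502 at −0.78 and −1.06 in mmi1-ts3, against −0.35 and −1.03 in the wild type, with overlap. The body proteins Rps13 (uS15) and Rps22 (uS8) were less low, with means of −0.59 (rps13), −0.61 (rps2201) and −0.71 (rps2202) in mmi1-ts3, against −0.28, −0.41 and −0.33 for the same genes in the wild type. These 3 genes were separated lower in mmi1-ts3 and passed there alone.

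The gene of Rps7 (eS7), which in budding yeast is needed for 18S rRNA processing, did not move with the rest. For rps7 (SPOM_SPAC18G6.14C) the ratios were 0.12 and −0.25 in mmi1-ts3, against −0.05 and 0.13 in the wild type. Its percentiles among all genes were 46.0 in mmi1-ts3 and 50.4 in the wild type. Its SD over 2 arrays was 0.26 in mmi1-ts3 and 0.13 in the wild type, and it passed in neither strain (limma adjusted p = 0.817 and 0.897 in mmi1-ts3 and the wild type). The 4 highest means also included rps3001 and rps27 in mmi1-ts3 (−0.54 and −0.54), and rps13 and rps901 in the wild type (−0.28 and −0.30).

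Members with and without a bacterial counterpart, and members of the head and the rest of the subunit, were set side by side. The 21 members with a counterpart had medians of −0.86 in mmi1-ts3 and −0.46 in the wild type, and the other 26 of −0.98 in mmi1-ts3 and −0.68 in the wild type. The 19 head members had medians of −0.96 in mmi1-ts3 and −0.58 in the wild type, and the 28 members of body and platform of −0.89 in mmi1-ts3 and −0.60 in the wild type. The test called 19 of the 21 and 22 of the 26 lower in mmi1-ts3 (19.6% of all genes), against 4 and 14 of the same groups in the wild type (14.5% of all genes), so the 4 of 21 are near the share of all genes. Of the 19 head members 18 were called lower in mmi1-ts3 and 7 in the wild type, and of the other 28, 23 in mmi1-ts3 and 11 in the wild type. These groups were not tested against each other.

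Between the strains, the transcripts of 46 of the 47 members had a lower fitted mean in mmi1-ts3 than wild-type cells gave, though 0 passed the test of the difference. The median of mmi1-ts3 minus wild type was −0.31 over the members, which is 0.806-fold, and −0.07 over all genes tested. Of all genes tested, 60.8% were below 0. In 29 members (61.7%) both mmi1-ts3 arrays lay below both wild-type arrays and in 0 above them, where 20.4% of all genes tested were separated lower and 9.37% higher. In the uncoded and coded array sets the median differences of the members were −0.37 and −0.30, against −0.09 and −0.06 for all genes. Without centring the median was −0.25 for the members and −0.0025 for all genes, and with 1 array left out the members' median ran from −0.41 to −0.20. In both array sets taken singly, 42 of the members (89.4%) and 35.8% of all genes lay below 0.

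By limma, 0 members and 0% of all genes tested passed an adjusted p under 0.05 for this difference. At an unadjusted p under 0.05, 0 members passed, where 0.859% of all genes were lower. The smallest adjusted p of the members was 0.998, or 0.772 with the array set as a block, and the smallest that any gene reached was 0.254. The members had all been measured on the same 4 arrays, so their common direction counts as 1 observation per array and not as 47.

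**Figure D2:**
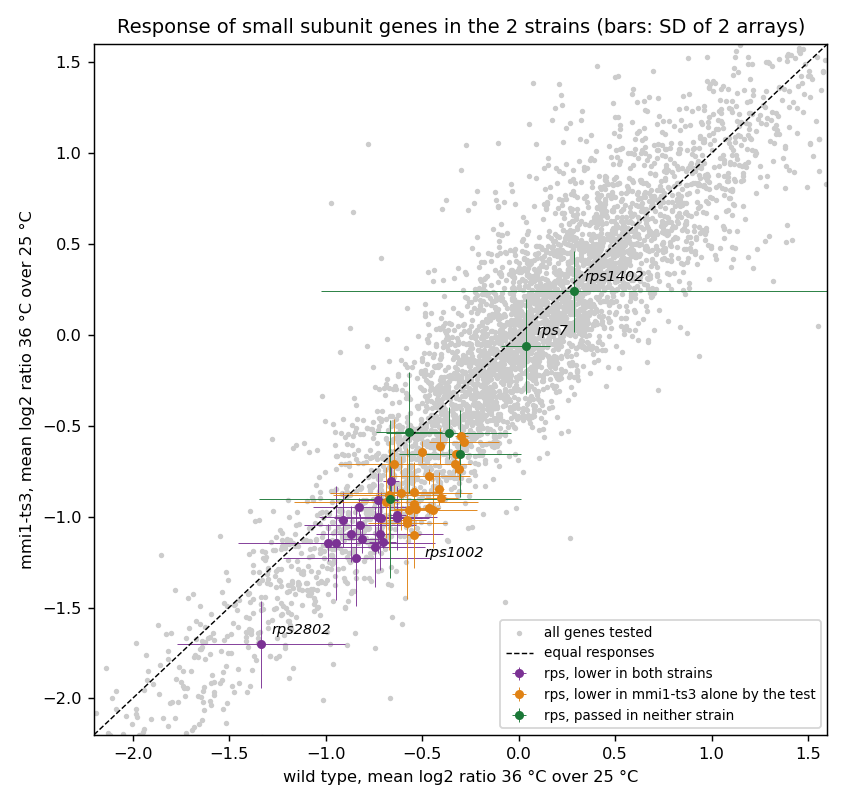
Mean log2 ratio of 36 °C over 25 °C in mmi1-ts3 (vertical) against the wild type (horizontal), for all genes tested (grey) and the small subunit genes (coloured by whether they passed the test in both strains, in mmi1-ts3 or in neither), with bars for the SD of 2 arrays; the bar of rps1402 and some grey points run past the axes. Of the 47 small subunit genes, 46 lie below the dashed line of equal responses.

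The lowest differences belonged to head proteins and Rps1. They were −0.56 ± 0.24 for rps1002 and −0.52 ± 0.26 for rps1001 (fitted difference ± SE, n = 2 arrays per strain), which are −0.66 and −0.45 for rps1002 and −0.51 and −0.54 for rps1001 in the uncoded and coded sets. Then came rps20 at −0.50 ± 0.23, rps3 at −0.49 ± 0.23, rps102 at −0.46 ± 0.30 and rps1802 at −0.44 ± 0.23. With 1 array left out, the difference of rps102 ran from −0.75 to −0.17. With centring on nearby spots the differences were −0.27 for rps1001, −0.25 for rps20, −0.25 for rps102 and −0.18 for rps1802, while rps1002 (−0.57) and rps3 (−0.53) moved little, so the order of these 6 depends on the centring. Each of these 6 was separated lower and each was called lower in mmi1-ts3 and not in the wild type. At percentile 2.98 of all genes, rps1002 had the lowest difference of the members, where the lowest of all genes tested was at −2.51 (log2).

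At the other end were rps3001 (0.03 ± 0.28), rps1402 (−0.05 ± 0.61), rps1401 (−0.06 ± 0.28) and rps7 (−0.10 ± 0.26). The signs of 12 members changed when 1 array was left out, among them these 4 and rps1501, rps21, rps2801 and the copies rps402 and rps403. The genes of the 40S subunit outside the rps names went apart: cpc2, for the RACK1 protein, was at −1.20 and −1.40 in mmi1-ts3, against −0.83 and −0.64 in the wild type. For ubi3, which encodes a fusion of ubiquitin with a small subunit protein, the ratios were −0.03 and −0.90 in mmi1-ts3, against −0.31 and −1.11 in the wild type, with overlap.

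Copies of a family were compared within each array, as the log2 ratio of the copy with the higher number minus that of the other, which gave 21 pairs. No test was made on these 4 arrays, and cross-hybridisation between copies was not tested. The absolute mean difference of a pair had a median of 0.12 over the pairs and ran from 0.01 to 0.94. As a description without a test, in mmi1-ts3 the median absolute difference of means was 0.14 within families (21 pairs) and 0.22 across families (1060 pairs), and in the wild type 0.10 and 0.23. In 7 pairs the sign was the same on all 4 arrays.

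The most uneven of these 7 pairs was that of Rps28, in which rps2802 lay below rps2801, the differences being −0.61 and −0.51 in mmi1-ts3, against −0.45 and −0.34 in the wild type (mean −0.475 ± 0.11, SD over 4 arrays). In the family of Rps19, rps1902 minus rps1901 was −0.56 and −0.425 in mmi1-ts3, against −0.17 and −0.24 in the wild type (mean −0.35 ± 0.18). For rps3002 minus rps3001 the values were −0.37 and −0.32 in mmi1-ts3, against −0.015 and −0.19 in the wild type (mean −0.22 ± 0.16). In the last of these pairs rps3002 was called lower in mmi1-ts3 (adjusted p = 0.0233 by limma) and rps3001 was not (adjusted p = 0.0863 by limma). A call of 1 copy and not of the other is not a difference between them, which was not tested.

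In the other 4 pairs the mean difference was under 0.2. It was 0.17 ± 0.12 for rps2402 minus rps2401, 0.16 ± 0.11 for rps002 minus rps001, 0.13 ± 0.05 for rps1502 minus rps1501 and −0.06 ± 0.05 for rps902 minus rps901. The pairs closest to 0 were rps2202 minus rps2201 (−0.01 ± 0.12), rps403 minus rps401 (0.02 ± 0.07) and rps2302 minus rps23 (0.03 ± 0.09). Outside the 7, rps1402 minus rps1401 was 0.62 and 1.28 in mmi1-ts3, against −0.20 and 2.06 in the wild type, and rps602 minus rps601 was 0.58 and 0.14 in mmi1-ts3, against 0.24 and −0.07 in the wild type.

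Copies lie at different places in the spot table, and the centring on nearby spots changed these differences. Of the 21 pairs, 15 kept the sign of their mean under it, and 5 of the 7 named above. With it rps2802 minus rps2801 was −0.22 and rps1902 minus rps1901 was −0.14, while rps1502 minus rps1501 was −0.39 and rps902 minus rps901 was 0.45. This centring also subtracts the response of the genes that happen to be listed nearby.

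**Figure D3:**
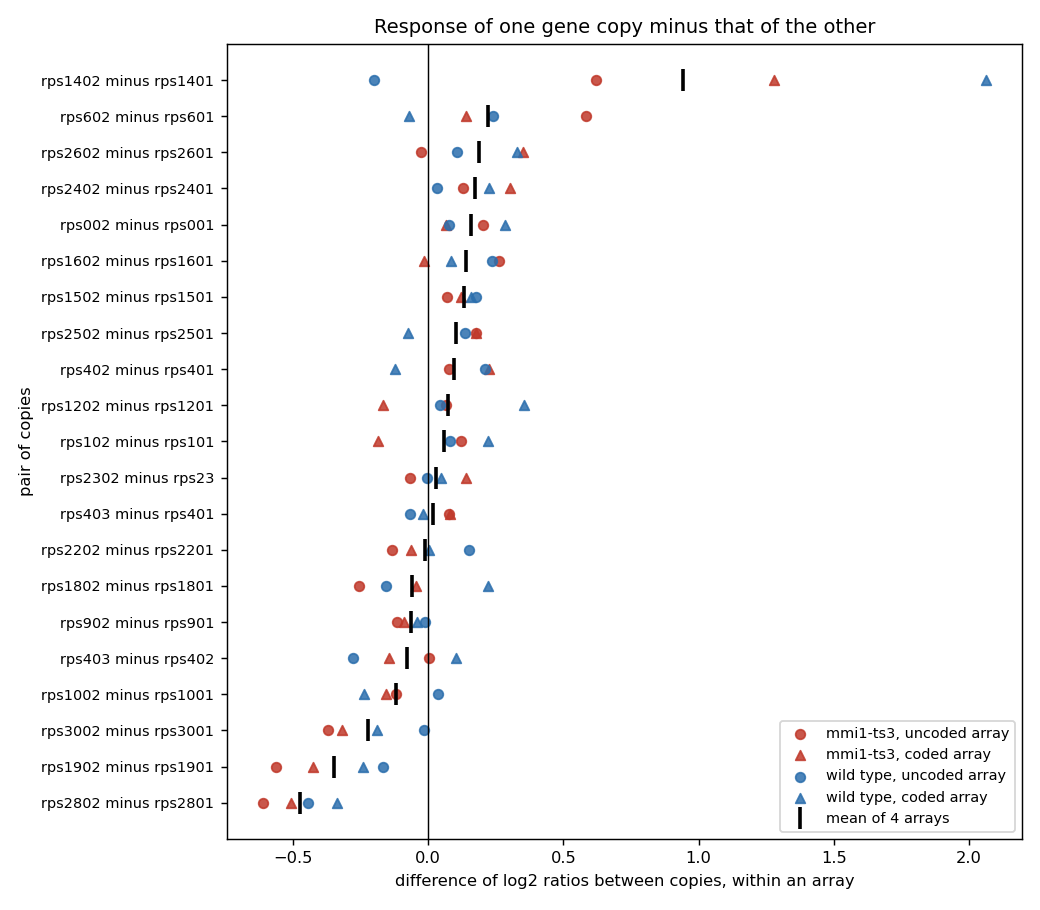
Difference of the log2 ratios of 2 gene copies within an array (horizontal), for 21 pairs ordered by their mean (black bars), with 1 point per array: red for mmi1-ts3, blue for the wild type, circles for the uncoded and triangles for the coded array. The pairs of Rps28 and Rps19 lie left of 0 on all 4 arrays, and rps1402 minus rps1401 spreads from −0.20 to 2.06.

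The members differed between the array sets in a like way in both strains. Across the 47 members the coded and uncoded arrays differed in the same direction in both strains for 36, with 27 lower and 9 higher on the coded arrays. The same count was not made over all genes, so it is not shown to be particular to the members. The median coded minus uncoded difference over the members was −0.09 in mmi1-ts3 and −0.12 in the wild type. Over all genes it was also below 0, at −0.05 in mmi1-ts3 and −0.08 in the wild type. The lowest member was rps21, at −0.61 (coded minus uncoded) in mmi1-ts3 and −0.96 in the wild type, and rps2801 was at −0.44 in mmi1-ts3 and −0.72 in the wild type. Higher on both coded arrays were rps1402, rps601 (0.31 in mmi1-ts3 and 0.37 in the wild type) and rps1001 (0.29 in mmi1-ts3 and 0.32 in the wild type), among others.

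The correlation of this coded minus uncoded difference between the strains was 0.68 over the 47 members and 0.72 over the 46 without rps1402, against 0.38 over all genes tested, as a description across genes. Pearson's r of the members' ratios was 0.67 between the uncoded arrays of the strains and 0.92 between the coded ones, but 0.74 between the arrays of mmi1-ts3 and 0.30 between those of the wild type. Without rps1402 these were 0.79, 0.87, 0.66 and 0.47. By r without rps1402, both pairs of arrays from the same set were thus closer to each other than either pair from the same strain. By r with it, the uncoded pair was less close than the mmi1-ts3 pair. Spearman's rho with rps1402 kept was 0.73 and 0.84 for the uncoded and coded sets, against 0.53 and 0.37 for mmi1-ts3 and the wild type. Over all genes tested r was 0.907 and 0.873 for the same sets, against 0.868 and 0.774 for the same strains. The closeness within array sets is thus not particular to the members. What sets the array sets apart is not given beyond the titles, and its part in the order of the members was not tested.

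**Figure D4:**
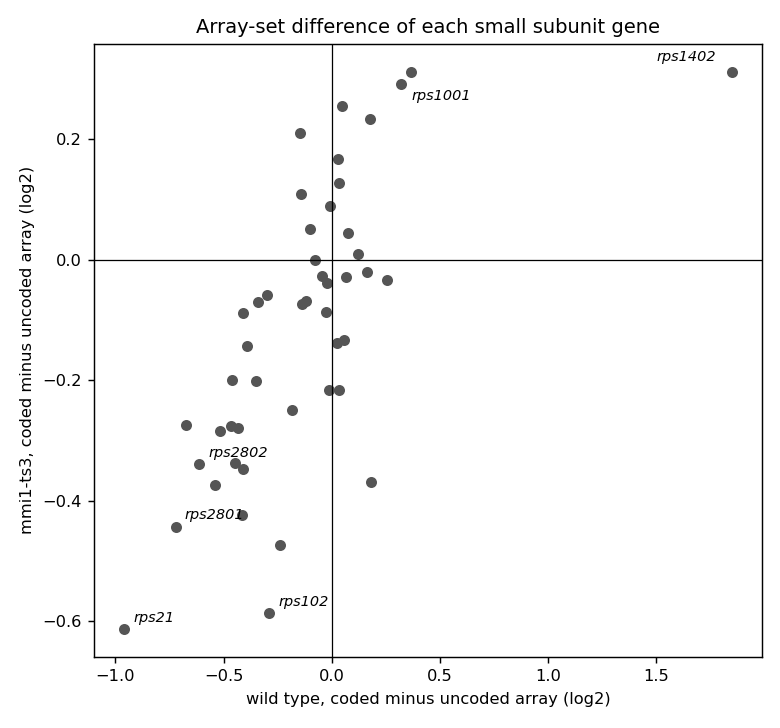
Coded minus uncoded array (log2) of each of the 47 small subunit genes in mmi1-ts3 (vertical) and in the wild type (horizontal), 1 point per gene. Of the points, 27 lie below 0 on both axes and 9 above 0 on both, with rps21 at the lower end and rps1402 far to the right.

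Copies of a family went the same way in some families and not in others. Both genes for Rps1, Rps9, Rps15, Rps16, Rps18, Rps24, Rps25, Rps28 and Rps30 were lower on the coded arrays of both strains, as 27 of the 47 members were, and both for Rps10 were higher. The copies for Rps14, Rps23 and Rps26 went opposite ways, and in the families of Rps0, Rps4, Rps6, Rps12, Rps19 and Rps22 at least 1 copy differed in direction between the strains. Some members are neighbours in the genome, and 3 pairs of them are next to each other among protein-coding genes: rps29 with rps27 and rps1402 with rps1601 on chromosome II, and rps2 with rps20 on chromosome III. The members of the last pair had similar means (−0.86 and −0.90 in mmi1-ts3, against −0.54 and −0.40 in the wild type), whereas rps1402 and rps1601 (−0.78 in mmi1-ts3 and −0.46 in the wild type) did not. The first pair had means of −0.74 for rps29 and −0.54 for rps27 in mmi1-ts3, against −0.31 and −0.36 for these genes in the wild type.

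The rest of the translation machinery gives the setting. The 76 tested large subunit proteins had medians of −0.99 in mmi1-ts3 and −0.67 in the wild type, near those of the small subunit. In mmi1-ts3, 72 were called lower (94.7%, against 19.6% of all genes). In the wild type, 46 were called lower (60.5%, against 14.5% of all genes). Of the 76, rpl102 (−1.50 in mmi1-ts3, −1.04 in the wild type), rpl42 (−1.43 and −0.99) and rpp0 (−1.40 and −1.08), the base of the ribosomal stalk, fell furthest in mmi1-ts3. In 1 large subunit gene, rpl501, the call was higher in both strains, with means of 1.34 in mmi1-ts3 and 1.005 in the wild type (named after its value was seen). The median strain difference of the large subunit genes was −0.32, and 61 of 76 were separated lower (80.3%, against 20.4% of all genes).

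The 56 measured assembly factors of the small subunit had lower medians than the proteins they assemble, at −1.62 in mmi1-ts3 and −1.40 in the wild type, though the lists were not tested against each other. Of them 46 fell in mmi1-ts3 (82.1%, against 19.6% of all genes) and 47 in the wild type (83.9%, against 14.5% of all genes). The lowest means in mmi1-ts3 were those of rio2, a kinase of late 40S maturation (−3.05 in mmi1-ts3 and −2.53 in the wild type), rrp5 (−2.46 in mmi1-ts3 and −1.94 in the wild type) and nop9 (−2.30 in mmi1-ts3 and −2.25 in the wild type), and in the wild type those of rio2, nop9 and utp6 (−2.06 in mmi1-ts3 and −2.09 in the wild type). In each strain 1 assembly factor was called higher, has1, an RNA helicase, with means of 1.25 in mmi1-ts3 and 1.44 in the wild type (limma adjusted p = 0.00653 in mmi1-ts3 and 0.00527 in the wild type). The median strain difference of the assembly factors was −0.15, with 15 separated lower (26.8%, against 20.4% of all genes) and 2 higher, and ltv1, an export and assembly factor of the 40S precursor, was lowest (−0.79). For fap7, an ATPase of the last steps of 40S maturation, the ratios were −0.43 and −0.24 in mmi1-ts3, against −0.82 and −1.23 in the wild type.

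Initiation factors bring the small subunit to the mRNA. Among 22 of them, 19 fell in mmi1-ts3 (86.4%, against 19.6% of all genes). In the wild type 16 fell (72.7%, against 14.5% of all genes). The gene tif11, for eIF1A, was at −1.94 in mmi1-ts3 and −1.63 in the wild type. Of 18 regulators of ribosomal protein genes and kinases of the TOR pathway, 6 fell (33.3%, against 19.6% of all genes) and 1 rose in mmi1-ts3, and 3 fell (16.7%, against 14.5% of all genes) and 1 rose in the wild type, so the wild-type share is near that of all genes. The regulator sfp1, an activator of these genes in budding yeast, fell to −1.36 in mmi1-ts3 and −1.10 in the wild type, and gtr2, a GTPase upstream of TOR, rose to 0.93 in mmi1-ts3 and 1.38 in the wild type. For rrn7, which in fission yeast binds an element of ribosomal protein promoters, the ratios were −0.46 and −0.35 in mmi1-ts3, against 0.09 and 0.23 in the wild type, and it passed in neither.

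**Figure D5:**
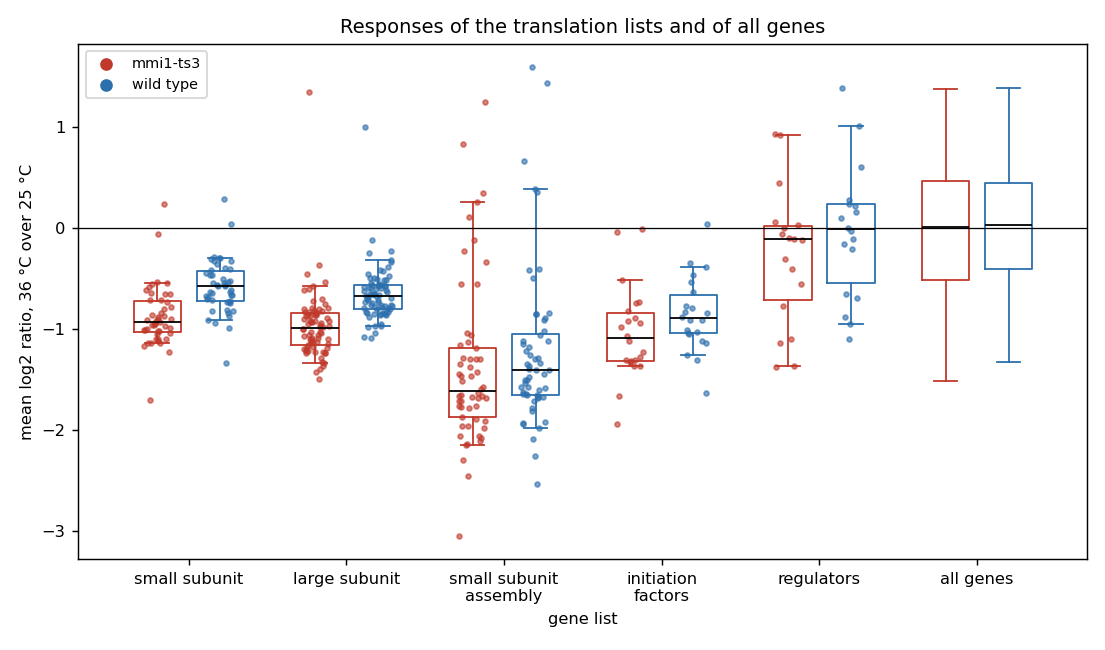
Mean log2 ratio of 36 °C over 25 °C (vertical) in mmi1-ts3 (red) and the wild type (blue) for the small subunit genes, 4 further lists and all genes tested; points are genes, boxes the quartiles with the median in black, and whiskers the middle 90% of genes. The small and large subunit boxes lie wholly below 0 in both strains, with medians of −0.93 and −0.58 for the small subunit in mmi1-ts3 and the wild type.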

How the data were processed

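PolyA RNA was compared on 4 two-colour arrays. The authors deposited 1 log ratio per spot, taken as log2 from the values: the highest, 7.81, exceeds the 4.82 that 16-bit intensities allow in base 10, and a natural log remains possible. The authors' background correction, normalization and filters are not given in the sources used here, and the labels' dye fields and protocol disagree on the dye of channel 1. Of 5188 spots, 4933 carry 1 gene, 1 several and 254 none; 4930 matched RefSeq (ASM294v3, names and neighbours only) by gene ID. Spots of a gene were averaged, genes with values on all 4 arrays kept, and arrays centred on their median (subtracted: −0.002 and 0.10 in mmi1-ts3, −0.10 and 0.07 in the wild type). Spots with a value numbered 5184 and 5132 in mmi1-ts3 and 5183 and 5121 in the wild type. limma 3.58.1 (R 4.3.3) fitted strain means to all 4 arrays (residual degrees of freedom 2, prior 3.56), with Benjamini-Hochberg adjustment over 4771 genes, and was tested on simulated data. With 1 array of a strain left out, the other is assumed to vary like those of the other strain. The number of arrays limits the precision.

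The members and lists were chosen with earlier results of these data known. Named are, for each strain and the difference, the 6 lowest and 4 highest members, up to 6 called lower in 1 strain, the families with the largest same-sign and the 3 smallest copy differences, and genes among the 3 largest of other lists; rpl501 and further members are named to cover the families, chosen after their values were seen. Promoter motifs were not analysed here. The alternatives changed centring, scaling, genes kept, spot averaging, variance model, threshold, array set as a block and arrays left out.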

Additional observations from a re-analysis of the deposited data

How the results depend on the processing

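The count of members called lower in the wild type, 18, was 0 at an adjusted p under 0.01 (5.95% of all genes), 32 at 0.10 (19.4%) and 32 with the array set as a replicate block (19.3%), and ran from 0 to 14 with 1 array left out (6.2% to 14%). The count in mmi1-ts3, 41, was 16 at 0.01 (9.89%) and 7 to 42 with 1 array left out (10.8% to 20.4%). The wild-type value of rps1402 ran from −0.64 to 1.21 with 1 array left out, and its call depended on the array. The count separated lower was 29 in the main run, where 20.4% of all genes were. It was 25 without centring, 26 with arrays scaled to a common spread and 25 with centring on nearby spots. With 1 array left out, which makes separation easier, it ran from 29 to 45. The share of all genes separated lower was not counted in these other settings, so the counts there have no background beside them. The pairs of copies with 1 sign, 7 over 4 arrays, numbered 8 to 11 over 3. The members' median in mmi1-ts3, −0.93, was −0.88 without centring and −0.80 with centring on nearby spots, an alternative chosen after seeing the data. The median strain difference, −0.31, was −0.246 in each of these settings to 3 digits, and −0.412 to −0.204 with 1 array left out. Among the members named by rule and those of the named families, no called direction reversed in an alternative run. The other members were not checked for this.

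The titles' codes do not state a pairing of arrays across strains. The coded minus uncoded differences of the strains correlated at 0.38 over all genes. With the replicate block 45 members were called lower in mmi1-ts3, where 24.3% of all genes were, and 0 for the strain difference. The promoter motif description was not run. With 2 arrays a strain, a missed call does not show that a transcript stayed level.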
